A study of Mus musculus with 21 samples.

Results

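Myofiber S6.4 was a single muscle fiber of the mouse soleus, number 6 of the fibers from mouse 4, and was 1 of the 21 fibers whose RNA was hybridized to arrays of their own. Its labels give it as a pure type 1 fiber, but it was chosen by its measured myosin heavy chain (MyHC) signals, which go against that label: Myh7, the type 1 MyHC gene, was low in it, and Myh2, the type 2A MyHC gene, was high. It is therefore called S6.4 or the library labelled type 1 here, and was set, probe by probe, against the range of the other 10 type 1 fibers and the range of 10 type 2B fibers. With 1 fiber there is no replicate and no test of S6.4, so that every statement about it is its value beside those of the other 20.

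The study asked which transcripts, non-coding ones above all, distinguish slow from fast myofibers. Fibers were freed by collagenase from the soleus (type 1) and from the extensor digitorum longus, or EDL (type 2B), of untreated CD1 mice aged 3 months, which the labels give as male and the study's methods as female. A piece of each fiber was clipped for MyHC typing of its protein on gels, and the RNA of the rest was amplified, labeled with Cy3 and hybridized. Each type came from 6 of 9 mice, and mouse 4 gave S6.4, 1 other type 1 fiber (S9.4) and 1 type 2B fiber (E10.4). All type 1 fibers were from soleus and all type 2B fibers from EDL, so that fiber type and muscle cannot be told apart. The protein typing of S6.4 was not analysed here.

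Skeletal muscle fibers are classed by the MyHC isoform that drives contraction. Type 1 fibers contract slowly, rely on mitochondria and carry Myh7 with slow forms of troponin, tropomyosin and myosin light chains. Type 2A fibers, which carry Myh2, are fast and oxidative and share the mouse soleus with type 1 fibers, whereas type 2X (Myh1) and 2B (Myh4) fibers are fast, more glycolytic and frequent in the EDL. The set of arrays holds no group of type 2A fibers, so that S6.4 could be placed only against types 1 and 2B.

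The promoters of the 4 adult MyHC genes are shown because the mRNAs of these genes chose the fiber. Each is the 250 bases before the transcription start given by RefSeq, on the strand of the gene, build GRCm38.p6. Capitals mark the longest run of bases found in all 3 fast promoters.
Myh7, type 1 MyHC, chr14:54994550-54994799, minus strand, the downstream of 2 RefSeq starts: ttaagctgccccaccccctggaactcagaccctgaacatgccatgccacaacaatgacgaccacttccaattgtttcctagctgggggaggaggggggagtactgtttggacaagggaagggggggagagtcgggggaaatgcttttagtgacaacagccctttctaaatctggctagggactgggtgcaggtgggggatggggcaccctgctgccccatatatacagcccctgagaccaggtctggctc
Myh2, type 2A MyHC, chr11:67170777-67171026, plus strand: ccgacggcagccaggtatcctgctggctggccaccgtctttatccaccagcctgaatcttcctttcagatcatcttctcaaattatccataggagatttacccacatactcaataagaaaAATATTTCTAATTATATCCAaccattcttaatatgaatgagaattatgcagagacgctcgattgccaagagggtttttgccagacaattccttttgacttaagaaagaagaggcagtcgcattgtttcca
Myh1, type 2X MyHC, chr11:67199852-67200101, plus strand: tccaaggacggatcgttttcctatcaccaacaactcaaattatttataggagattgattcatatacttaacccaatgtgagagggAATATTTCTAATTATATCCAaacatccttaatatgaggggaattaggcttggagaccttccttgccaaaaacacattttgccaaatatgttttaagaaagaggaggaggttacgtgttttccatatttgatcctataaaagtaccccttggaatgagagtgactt
Myh4, type 2B MyHC, chr11:67237562-67237811, plus strand: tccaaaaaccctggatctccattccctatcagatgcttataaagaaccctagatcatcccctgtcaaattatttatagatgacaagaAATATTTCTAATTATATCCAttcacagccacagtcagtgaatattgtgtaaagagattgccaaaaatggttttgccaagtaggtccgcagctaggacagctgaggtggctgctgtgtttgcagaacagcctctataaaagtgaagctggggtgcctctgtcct
The 3 fast genes lie side by side on chromosome 11 and Myh7 lies on chromosome 14. The shared run, AATATTTCTAATTATATCCA, was 20 bases long, began 130 bases before the start of Myh2, 165 before that of Myh1 and 163 before that of Myh4, and was searched on both strands. Of 32851 RefSeq promoter windows of this length 3 held it (0.00913%), which were these 3, and the Myh7 window did not. E-box letters (CANNTG, the same on both strands) stood 2 times in the Myh7 window, 2 times in that of Myh4 and not in those of Myh2 and Myh1, against 66.2% of all windows with at least 1. These matches describe the sequences and say nothing of which factor was bound.

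On the array of S6.4, 77.7% of spots were well above background. The other 7 arrays on its slide (3 type 1, 4 type 2B) had 73.2 to 79.8% and the 13 on other slides 38.7 to 63.1%, and no spot was saturated. Signals were log2 processed intensity, quantile normalized over the 21 arrays, and 43613 of 55681 probes were placed, those well above background in S6.4 or in at least 50% of a group. S6.4 lay within both ranges at 76.2% of them, in the type 1 range only at 10.45%, in the type 2B range only at 8.19% and between the ranges at 0.312%. It was above all 20 fibers at 3.43% and below all 20 at 1.47% (4.63% with no filter on dim probes, since a probe dim in most fibers was placed only where S6.4 was bright). Over the same probes, each of the other type 1 fibers was above all others at 2.90 to 7.18% (median 3.65%). They were below all others at 2.34 to 8.02% (median 3.93%). Ranks over 16143 probes well above background on every array correlated with Spearman's rho of 0.83 to 0.89 (median 0.88) between S6.4 and the other type 1 fibers, and of 0.79 to 0.88 (median 0.84) between S6.4 and the type 2B fibers. These are correlations across probes, which are not independent, and the 45 pairs of other type 1 fibers had 0.80 to 0.94. The correlations of S6.4 with the other type 1 fibers thus lay inside the range of those among them. So did its correlations with the type 2B fibers, apart from E7.7 at 0.79, so that this range does not tell the types apart. The highest of each group, S5.9 at 0.893 and E8.3 at 0.877, were on the slide of S6.4.

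The 4 adult MyHC genes, which encode the motor proteins, are given first and as a description only. Myh7 had a log2 signal of 8.88 in S6.4, against 15.18 to 15.96 (median 15.54) in the other type 1 fibers and 6.42 to 7.49 (median 6.74) in type 2B fibers. The value in S6.4 was 101-fold under the type 1 median and 4.41-fold over the type 2B median, in the gap between 2 groups that did not overlap (probe at mm9 chromosome 14, 55589581 to 55589640). Myh2 had 14.86 in S6.4, 1.71 to 12.69 (median 7.26) in the other type 1 fibers and 1.76 to 3.58 (median 2.21) in type 2B fibers (probe at mm9 chromosome 11, 67010960 to 67011019). S6.4 was thus the highest of all fibers for Myh2, with S16.3 at 12.69 next and S9.4, of the same mouse, at 8.80. The Myh2 spot of the type 1 fiber S15.2 carried an outlier flag and was left out, and its deposited intensity was 974 against 53000 in S6.4 and 4310 in S16.3. These intensities are not normalized between arrays. The 75th percentile of intensity was 437 on the array of S6.4 and 52.8 to 179 on the other slides, which hold S15.2 and S16.3. The Myh2 spot was well above background in 7 of the other 10 type 1 fibers, S15.2 included, and in 2 of the type 2B fibers.

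The other 2 adult isoforms were not used to choose the fiber. Myh1, the 2X isoform, had 9.15 in S6.4, in the middle of the type 2B fibers (1.71 to 11.70, median 9.08) and above all other type 1 fibers (1.64 to 5.59, median 1.69, well above background in 2 of 10). Myh4, the 2B isoform, had 5.63, within the other type 1 fibers (1.79 to 8.27, median 3.02) and 781-fold under the median of the type 2B fibers (14.07 to 15.48, median 15.24). S6.4 thus carried signal for the 2A and 2X isoforms, and its 2B signal stayed in the type 1 range, in which S7.3 at 8.27 was the only fiber above it. Without S6.4, Myh4 differed between the types by 11.73 (SE 0.59, limma, Bonferroni-adjusted p = 8.96e-11), and Myh1 did not pass (5.83, SE 0.98, adjusted p = 0.227).

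**Figure D1:**
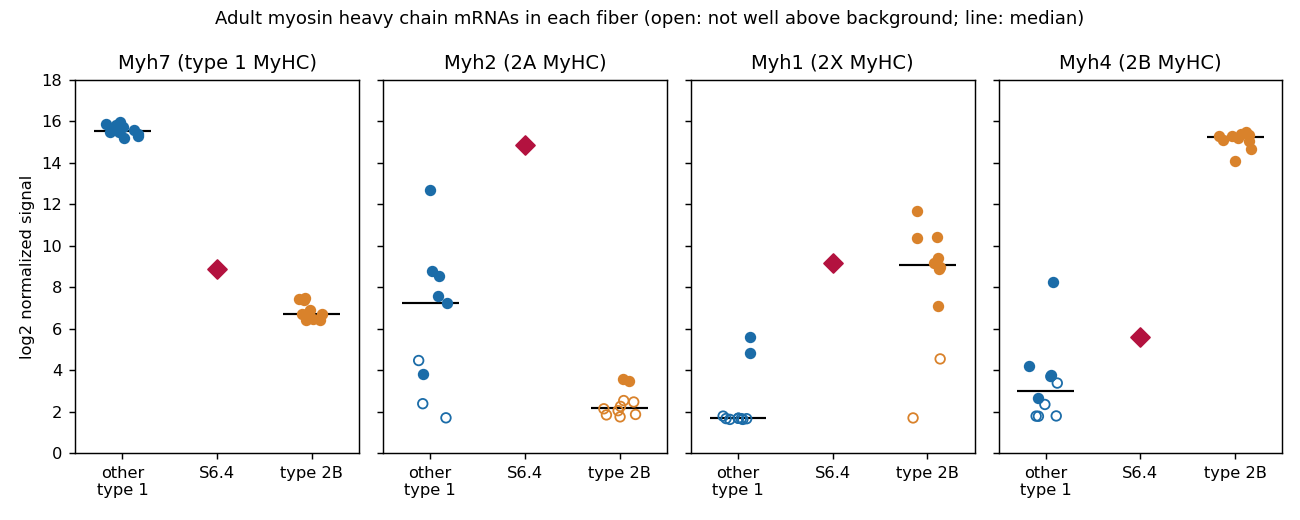
Log2 normalized signal of the 4 adult myosin heavy chain genes, with 1 point for each fiber, in the other type 1 fibers (n = 10, for Myh2 9 after an outlier spot was left out), in S6.4 and in the type 2B fibers (n = 10); open points were not well above background and lines are medians. S6.4 sits in the gap for Myh7 (8.88), above all others for Myh2 (14.86), among the type 2B fibers for Myh1 (9.15) and among the type 1 fibers for Myh4 (5.63).

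Of the remaining MyHC genes, those of the heart and of slow fibers were low in S6.4. Myh7b, a slow-type heavy chain gene, had 8.22, inside the type 2B range (6.56 to 8.34) and under the other type 1 fibers (14.63 to 15.54). Myh6, the cardiac alpha chain, had 7.59, also inside the type 2B range (6.09 to 8.07) and under type 1 (12.30 to 13.87). A second Myh6 probe had 6.55 and lay just above the type 2B range (4.99 to 6.18). Myh6 and Myh7 are close relatives and their probes may share signal, which was not tested. Myh3, the embryonic chain, had 9.61, within type 1 (6.72 to 11.46), while no fiber of type 2B was well above background, which put S6.4 at least 42.6-fold higher. Myh8, the perinatal chain, had 15.77, within type 2B (14.59 to 15.89) and above the other type 1 fibers (14.63 to 15.38). Of 2 further probes, 1 had 15.06 in S6.4 and took the same place. The other lay in both ranges and was far dimmer, at 3.15 in S6.4. Its medians were 2.94 in type 1 and 2.695 in type 2B. The Myh8 probes thus differed widely in level, and whether they share signal with other MyHC genes was not tested. Myh13 and Myh15 lay in both ranges.

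In the thin filament, whose troponins and tropomyosin switch contraction on with calcium, slow genes were low and fast genes high in S6.4. All 4 slow thin filament genes lay under the lowest of the other type 1 fibers. Tnni1, slow troponin I, had 8.28 against 14.82 to 15.88 in type 1 and 6.34 to 7.91 in type 2B, 145-fold under the type 1 median (probe at mm9 chromosome 1, 137705328 to 137706203). Tnnc1, slow troponin C, had 10.31 against 14.96 to 15.92 and 9.51 to 10.67, 36.7-fold under the type 1 median (mm9 chromosome 14, 32023360 to 32023776). Tpm3, slow tropomyosin, had 10.17 against 15.42 to 16.07 and 8.65 to 10.74. Tnnc1 and Tpm3 were thus at type 2B levels and Tnni1 was close to them. Tnnt1, slow troponin T, stood apart from these: it had 14.46 in S6.4, under type 1 (15.27 to 15.99) but far above type 2B (6.26 to 8.67).

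The 4 fast thin filament genes all lay above every other type 1 fiber and inside the type 2B range. Tnni2, fast troponin I, had 16.08 against 6.75 to 13.22 (median 9.68) in type 1 and 15.73 to 16.47 in type 2B. Tnnt3, fast troponin T, had 15.998 against 7.31 to 11.52 and 15.87 to 16.84, 197-fold over the type 1 median, and its second probe took the same place. These 2 groups did not overlap at either gene, and S6.4 lay wholly on the fast side. Tpm1, the fast alpha tropomyosin, had 15.59 against 10.39 to 14.10 and 15.16 to 15.94, with 3 of 4 further probes in the same place and 1 in the type 1 range. Tnnc2, fast troponin C, had 16.10 against 13.51 to 15.75 and 15.89 to 16.34. With each array scaled to its 75th percentile in place of quantiles, all 4 stayed above the other type 1 fibers, but 1 was inside the type 2B range and 3 lay between the ranges.

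In the thick filament, slow and fast genes parted from each other within S6.4. The myosin light chains of slow fibers stayed near type 1: Myl3, the slow essential light chain, had 15.97, inside type 1 (15.81 to 16.70) and far above type 2B (1.73 to 6.23), and Myl2, the slow regulatory light chain, had 15.29, just under type 1 (15.48 to 16.20) and above type 2B (5.06 to 6.90). Myl3 did not go the way of Myh7, Tnni1 and Tnnc1 (probe at mm9 chromosome 9, 110672238 to 110672297). Myl6b, a further slow essential light chain, had 4.96 and was down, just above type 2B (1.88 to 4.86) and under type 1 (8.73 to 11.05). The fast regulatory light chain Mylpf had 12.55, inside type 2B (11.69 to 13.45) and above type 1 (4.16 to 10.06). S6.4 therefore had both regulatory light chains, Myl2 close to the level of type 1 fibers and Mylpf at that of type 2B fibers. The fast essential light chain Myl1 had 14.83, inside type 1 (13.50 to 15.04). Mybpc2, fast myosin binding protein C, had 3.88, within type 1 (1.99 to 5.28) and far under type 2B (14.61 to 15.81), and the slow Mybpc1 lay in both ranges at 14.93 and in the type 1 range at a second probe. Mylk2, the skeletal myosin light chain kinase, had 9.80 and was under both type 1 (10.23 to 13.16) and type 2B (12.70 to 14.14).

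Genes of calcium handling and of the Z disc followed type 1 more than type 2B. Atp2a2, the slow SERCA pump that returns calcium to the store, had 13.95, under type 1 (14.54 to 16.18) and far above type 2B (4.27 to 6.57). A second probe had 11.74, farther under type 1 (14.29 to 15.07) and above type 2B (2.13 to 7.95). Sln, sarcolipin, which restrains the pump, had 11.74, just under type 1 (11.89 to 13.58), and no type 2B fiber was well above background, so that S6.4 was at least 186-fold higher than these. Casq2, the slow and cardiac calsequestrin, had 9.75, inside type 1 (8.23 to 11.75). Of the fast partners, Casq1 and Pvalb did not rise to type 2B levels. Casq1 had 12.87, inside type 1 (11.31 to 13.27) and under type 2B (13.96 to 14.98). Pvalb, the calcium buffer parvalbumin that marks the fastest fibers, had 7.58, inside type 1 (5.44 to 7.92) and under type 2B (16.95 to 17.32), and a second probe took the same place. Atp2a1, the fast SERCA pump, and Ryr1, the release channel, lay in both ranges. Within the slide of S6.4, Atp2a1 had 16.16, above type 1 (15.11 to 15.71) and inside type 2B (15.87 to 16.37). With 75th percentile scaling over all fibers it lay in the type 1 range only. Cacna1s, of the same list, lay in the type 1 range only, but a second probe lay in the type 2B range only.

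At the Z disc, the 4 slow genes kept type 1 values. Myoz2, a calcineurin-binding protein of slow and cardiac Z discs, had 12.69 against 11.87 to 13.302 in type 1, and no fiber of type 2B was well above background (S6.4 at least 361-fold higher). Ankrd2, a stretch-responsive protein, had 15.60 against 14.86 to 16.27 and 5.99 to 8.33 in the 2 groups. Csrp3, muscle LIM protein, had 14.04 against 12.61 to 14.75 and 1.61 to 4.73. Actn2, the alpha-actinin of all fibers, had 13.99 against 13.43 to 14.13 and 8.68 to 11.43, and a second probe lay in both ranges. The fast Z disc genes did not move together. Actn3, the alpha-actinin of fast glycolytic fibers, had 4.04 and was the lowest of all 21 fibers (type 1 4.42 to 6.99, type 2B 14.17 to 15.88). Myoz1 had 13.46 (type 1 10.02 to 11.69, type 2B 14.14 to 15.04) and Myoz3 had 10.25 (7.08 to 8.70 and 10.43 to 12.09), both between the groups and nearer to the fast one.

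**Figure D2:**
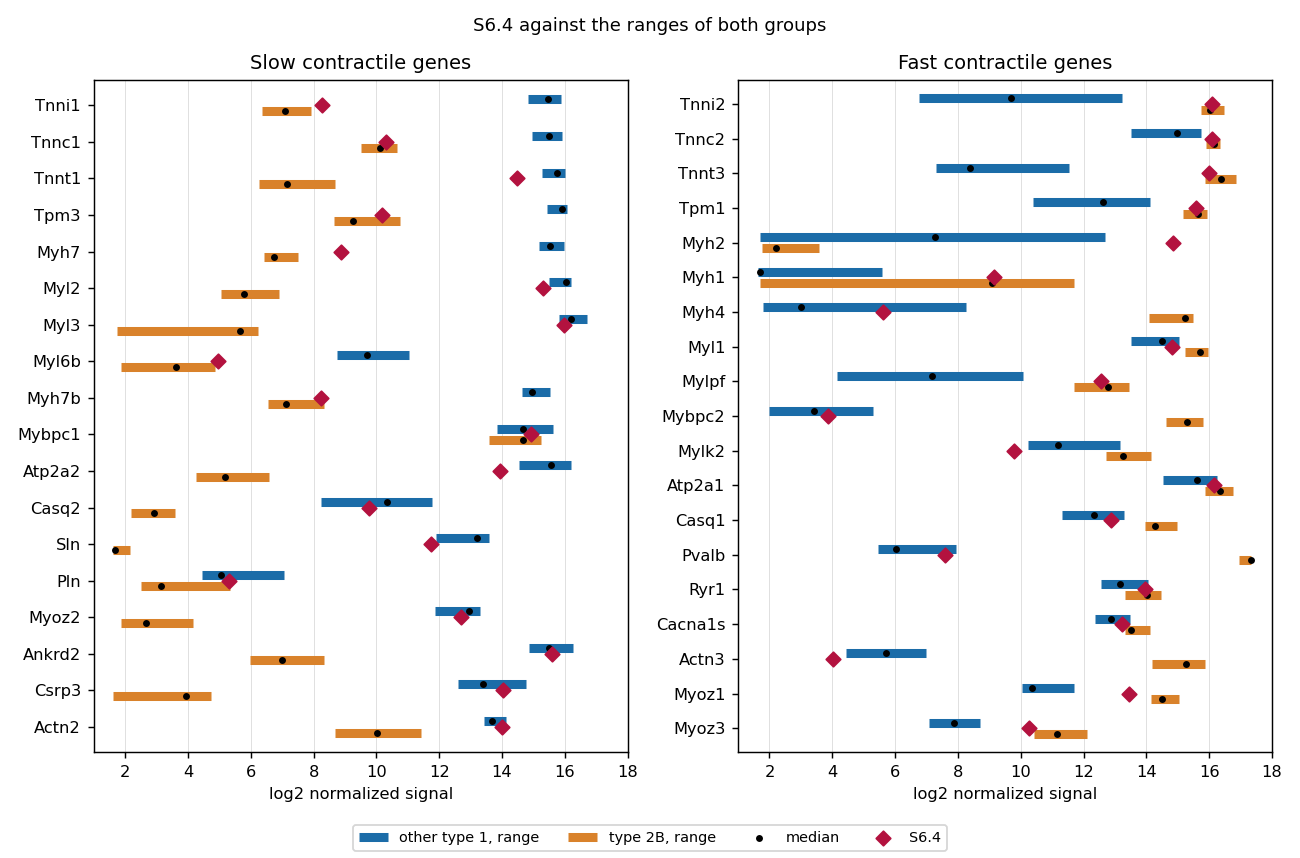
Log2 normalized signal of S6.4 (diamonds) beside the range (bars) and median (dots) of the other type 1 fibers and of the type 2B fibers at 18 slow and 19 fast contractile genes. Tnni1, Tnnc1, Tpm3, Myh7 and Myh7b sit at or near the type 2B bars while Myl3, Myoz2, Ankrd2 and Csrp3 sit on the type 1 bars; Tnni2, Tnnt3 and Mylpf sit on the type 2B bars while Mybpc2, Pvalb and Myh4 sit on the type 1 bars.

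Counted over the lists, 10 of the 18 slow contractile genes were under all other type 1 fibers (5.1% of all probes placed were) and none was above them. Of these 18, S6.4 lay in the type 1 range only at 6, in the type 2B range only at 3, between at 7 and in both at 2. Each of the other type 1 fibers, taken in the same way, was outside the rest of its group, S6.4 included, at 1 to 5 of the 18 (median 2). At the 10 genes where S6.4 was lowest none of them could be, so that their counts are held down by S6.4 itself. The same limit applies to the counts over the fast list. Of the 19 fast contractile genes 9 were above all other type 1 fibers (8.29% of all probes) and 2 were under them. The other type 1 fibers were each outside the rest of their group at 0 to 12 of the 19 (median 2), and S7.3, with 12, exceeded the 11 of S6.4, though 9 of its 12 were below all fibers. S6.4 lay in the type 1 range only at 6, in the type 2B range only at 6, between at 2, in both at 2, above all at 1 and below all at 2. The slow list holds Myh7 and the fast list Myh2, the genes the choice rests on. The median of S6.4 minus the type 1 median was -1.02 over the slow list, 1.56 over the fast list and 0.06 over all probes placed.

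Array slides differed in the share of spots above background, so the fibers on the slide of S6.4 were also taken alone. Against the 3 other type 1 fibers there, S6.4 was again lower for Myh7 (15.18 to 15.82), Tnni1 (14.82 to 15.66) and Tnnc1 (14.96 to 15.79), and again higher for Myh2 (1.71 to 3.85), Tnnt3 (7.31 to 8.61) and Tnni2 (6.75 to 8.04). Within its slide 28 of the 37 contractile genes lay outside the type 1 fibers, where 51.7% of all probes placed did, since the ranges of 3 fibers are narrow. With all fibers 21 of the 37 did.

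To place S6.4 at all genes that tell the types apart, the types were compared without it. Of 36461 probes tested with limma, 393 were higher in type 1 (1.08%) and 305 were higher in type 2B (0.837%) at a Bonferroni-adjusted p under 0.05. These p-values rest on the spread between fibers, several of them from 1 mouse. At the 393 probes higher in type 1, S6.4 lay in the type 1 range only at 229 (58.3%), in the type 2B range only at 68 (17.3%), between at 69 (17.6%), in both at 4, above both at 23 and below both at 0. On a line from the type 1 mean (0) to the type 2B mean (1) its median place was 0.19, and at 85 probes (21.6%) it was nearer the type 2B mean. The 305 probes higher in type 2B gave much the same picture, with 199 in the type 1 range only (65.2%), 44 in the type 2B range only (14.4%), 47 between (15.4%), 3 in both and 12 below both. The median place there was 0.19 too, with 71 probes (23.3%) nearer the type 2B mean. At full ranges, S6.4 thus lay in the type 1 range at most probes that distinguish the types, several of which can belong to 1 gene. With ranges from the second lowest to the second highest fiber, given further below, it no longer did so at most of them. Under 75th percentile scaling, 9.68% of the probes higher in type 2B fell in the type 2B range only.

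**Figure D3:**
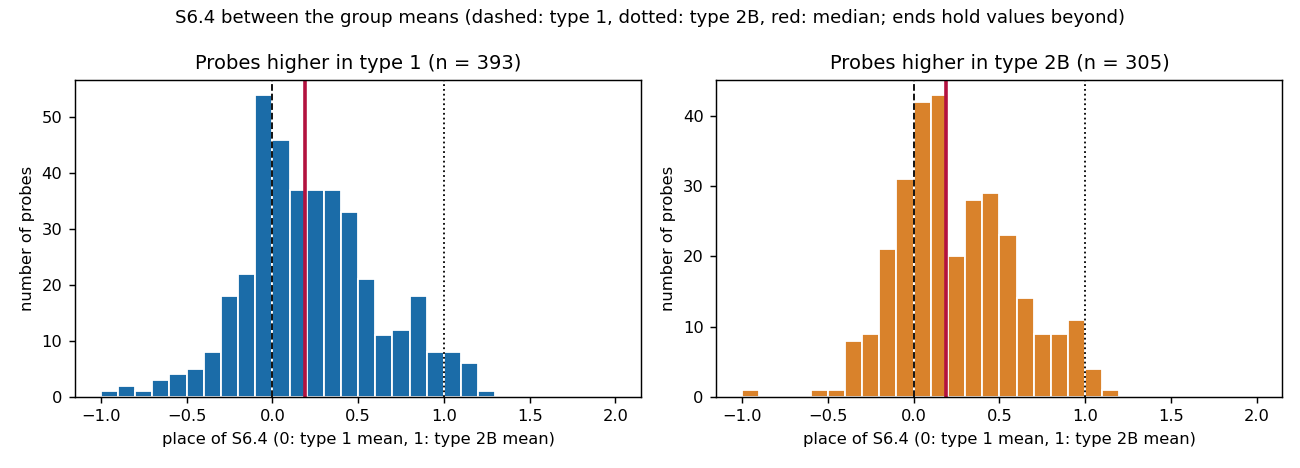
Number of probes (vertical axis) by the place of S6.4 between the mean of the other type 1 fibers (0, dashed) and that of the type 2B fibers (1, dotted), for the 393 probes higher in type 1 and the 305 higher in type 2B, with the medians in red. Both distributions have a median of 0.19 and a tail that reaches the type 2B mean.

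Among the 10 genes with the widest type difference at which S6.4 was in the type 2B range, contractile genes led. On the side higher in type 1 they were Myh7b, Tpm3, Myh6, Xpo4, Tnnc1, Ogn, Spag11a, Prox1, Slc25a22 and Tppp3. Xpo4, a nuclear transport receptor, had 2.94 in S6.4 against 6.76 to 8.83 in type 1 and 1.74 to 4.17 in type 2B. Tppp3, a tubulin-binding protein, had 7.40 against 10.03 to 13.56 and 4.33 to 11.15. On the side higher in type 2B they were Tnnt3, Prss23, Tnni2, Cbr2, Tpm1, Mylpf, Angptl2, Slc8a3, Prr33 and Prkcd. Prss23, a secreted protease, had 10.83 against 2.41 to 7.57 and 10.56 to 12.23. Slc8a3, the sodium and calcium exchanger NCX3, had 9.76 against 5.50 to 7.59 and 7.98 to 14.04, though its other probe took another place. These genes were picked for type 2B values in S6.4, and those named include genes outside the sarcomere.

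Of the 10 with the widest difference at which S6.4 was in the type 1 range, those higher in type 1 were Myl3, Ldhb, Myoz2, Csrp3, Ablim1, Lgi1, Ankrd2, Cd36, Dgat2 and Myom3. Dgat2, which makes triglycerides, had 12.08 against 10.93 to 13.57 in type 1 and 1.67 to 6.43 in type 2B. Myom3, an M band protein, had 12.48 against 12.02 to 12.95 and 3.54 to 6.15. Ablim1, an actin-binding protein, had 11.92 against 10.89 to 12.90 and 1.74 to 3.64. Those higher in type 2B were Pvalb, Mybpc2, Myh4, Tspan8, Smox, Maf, Ube2c, Slc16a3, Mylk4 and Gdap1, of which Tspan8 and Ube2c were not well above background in S6.4. Slc16a3, the lactate exporter MCT4, had 6.02 against 5.51 to 8.56 in type 1 and 11.49 to 13.60 in type 2B. Smox, a polyamine oxidase, had 5.89 against 1.68 to 6.29 and 9.88 to 12.12. Pvalb, Mybpc2 and Myh4 had the widest differences of these 10, which were picked for type 1 values in S6.4.

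Genes of oxidative metabolism were next. Of 77 genes placed, 31 lay in the type 1 range only and 3 in the type 2B range only, with 22 in both, 2 between, 18 above all fibers (4 with 75th percentile scaling) and 1 below all. Of all probes placed 10.45% lay in the type 1 range only, 76.2% in both and 3.43% above all. S6.4 was not alone in such a count, since the type 1 fiber S10.10 was above all others at 26 of the 77. Mb, the oxygen store myoglobin, had 15.68 against 14.80 to 15.89 in type 1 and 6.28 to 10.84 in type 2B. Ldhb, the lactate dehydrogenase of oxidative tissue, had 14.15 against 13.36 to 14.73 and 2.63 to 4.03. Ckmt2, the mitochondrial creatine kinase, had 15.301 and was above both type 1 (14.11 to 14.999) and type 2B (12.84 to 14.15), but inside the type 1 range with 75th percentile scaling. Car3, carbonic anhydrase 3, which marks slow fibers, was 1 of 3 genes under the other type 1 fibers, with 14.47 against type 1 (14.66 to 15.92) and type 2B (5.87 to 11.80).

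All 5 fatty acid uptake genes placed lay in the type 1 range only, as did 10.45% of all probes. Among them the fatty acid transporter Cd36 had 11.06 (type 1 10.37 to 12.69, type 2B 1.72 to 4.47), and Fabp3, the muscle fatty acid binding protein, had 15.04 (14.34 to 15.34 and 12.01 to 13.21). Lpl, lipoprotein lipase, had 13.50 (12.495 to 14.19 and 5.71 to 11.01). Of 21 fatty acid oxidation genes 11 lay in the type 1 range only, 1 in the type 2B range only, 7 in both, 1 between and 1 above both. The gene above was Hadh, with 10.35 against highs of 9.95 and 8.66. The gene between was Pdk4, the kinase that spares glucose by closing pyruvate dehydrogenase, with 11.22 under type 1 (12.21 to 13.47) and above type 2B (7.88 to 10.76).

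At all 31 respiratory chain genes the ranges of the 2 groups overlapped. S6.4 was above all 20 other fibers at 14 of the 31 (3.43% of all probes placed), below all at 1, in the type 1 range only at 7, in the type 2B range only at 1 and in both at 8. The median of S6.4 minus the type 1 median was 0.48 over the 31 genes. Uqcrc1, a core protein of complex III, had 14.82 against 12.38 to 14.16 in type 1 and 12.84 to 14.09 in type 2B. Ndufs3, of complex I, had 13.69 against highs of 13.06 and 13.47, and Sdhb, of complex II and listed with the citric acid cycle, had 14.08 against highs of 13.40 and 13.19. Margins were small at other members, such as Cox4i1 of complex IV, with 15.46 against highs of 15.44 and 15.27, and Atp5a1 of ATP synthase, with 14.09 against 14.05 and 13.84. Each of the other 20 fibers was above all others at 0 to 9 of these 31 genes (median 0). This count depended on the scaling: with 75th percentile scaling it was 2 of 31 and the median difference 0.26, while with normexp background correction it was 13 and with quantile normalization on the linear scale 14. Against the 7 other fibers of its slide alone S6.4 was above all at 26 of the 31, where 11.26% of all probes were. The median difference was above 0 under all 4 scalings, while the number of genes beyond every other fiber changed with the scaling.

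The 1 respiratory chain gene below all fibers was Ndufa9, a subunit of complex I. It had 6.36 in S6.4 against 8.97 to 12.46 (median 11.75) in type 1 and 10.66 to 12.14 (median 11.37) in type 2B, 42.0-fold under the type 1 median (1 probe, mm9 chromosome 6, 126771996 to 126772055). Its spot was well above background in S6.4 and in all 20 others. No second probe was placed for this gene. The complex I partners Ndufs3, Ndufv1, Ndufv2 and Ndufb8 lay above all other fibers in the same array, though none of these 4 did with 75th percentile scaling.

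**Figure D4:**
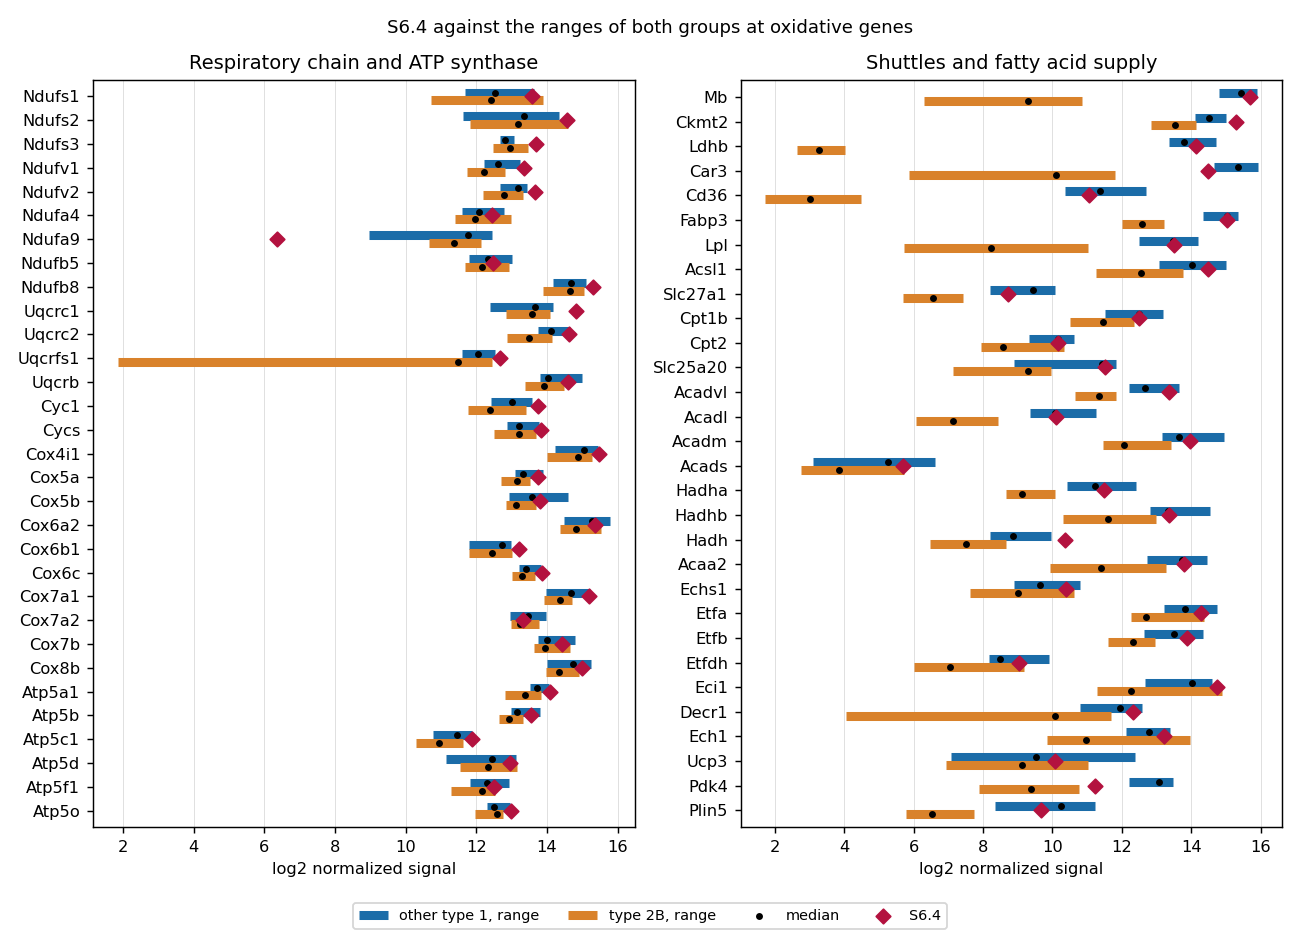
Log2 normalized signal of S6.4 (diamonds) beside the range (bars) and median (dots) of the other type 1 fibers and of the type 2B fibers at 31 respiratory chain genes (left) and at genes of oxygen and phosphate shuttling and fatty acid supply (right). S6.4 sits at the upper ends of the bars at most respiratory chain genes, with Ndufa9 far to the left at 6.36, and on the type 1 bars at Mb, Ldhb, Cd36 and Lpl.

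Glycolytic genes were spread between the groups. Of 23 genes, 10 lay in the type 1 range only, 5 in the type 2B range only, 3 in both, 4 between and 1 below both, and 9 were above all other type 1 fibers (5 with 75th percentile scaling). Over all probes placed, 10.45% lay in the type 1 range only, 8.19% in the type 2B range only, 76.2% in both and 0.312% between. Above all other type 1 fibers were 8.29% of them. Phka1, a subunit of the phosphorylase kinase that starts glycogen breakdown, kept a type 1 value at 10.14 (type 1 9.42 to 11.17, type 2B 12.08 to 13.50). Some steps of glycolysis were raised over type 1. Pfkm, the muscle phosphofructokinase, had 13.39, between type 1 (12.38 to 13.19) and type 2B (13.92 to 14.38), and Ldha, the lactate dehydrogenase of glycolytic tissue, had 13.93, between 12.96 to 13.82 and 14.33 to 15.302, although its 2 further probes were in the type 1 range, as was this one with 75th percentile scaling or normexp. Gpd1, the cytosolic arm of the glycerol phosphate shuttle, had 9.83, just above type 1 (7.37 to 9.72) and under type 2B (12.72 to 13.72). The mitochondrial arm, Gpd2, had 7.34 and was below all 20 fibers (7.43 to 9.45 and 10.29 to 13.46).

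Regulators of fiber type were spread over the places. Of 37 genes placed, 18 were in both ranges (76.2% of all probes placed were), 10 in the type 1 range only, 6 in the type 2B range only, 2 between and 1 below. Sox6, a repressor of slow genes, had 8.34, between type 1 (2.96 to 6.80) and type 2B (8.86 to 11.57). Maf, a factor linked to 2B myosin, had 6.96, between type 1 (3.26 to 6.85) and type 2B (8.42 to 10.88), but a second probe was in the type 1 range at 4.27. Eya4, a cofactor of the fast program, had 4.16 and kept a type 1 value (2.77 to 6.11, type 2B 6.87 to 9.73). Among factors of the slow program, Prox1 had 8.00, under type 1 (8.56 to 10.702) and inside type 2B (1.72 to 10.05). Nfatc2, a calcineurin target, had 7.91, also under type 1 (9.04 to 10.46) and inside type 2B (7.63 to 9.89). Ppargc1a, a driver of mitochondrial genes, had 11.46, inside type 1 (7.63 to 12.72) and above type 2B (8.53 to 10.60). Sox6 was thus raised over type 1, and Prox1 and Nfatc2 lay under it, while Eya4 did not leave it. Hdac4, a repressor in the same pathway, had 5.91 and was below both groups (6.59 to 8.09 and 5.998 to 8.06).

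Of 22 long non-coding RNAs placed from those the study followed, 15 lay in both ranges, 3 in the type 1 range only, 3 in the type 2B range only and 1 above. The shares of all probes placed were 76.2%, 10.45%, 8.19% and 3.43%, in the same order. The lncRNA 2310065F04Rik, which lies beside the fast MyHC genes, had 5.88, inside type 1 (5.84 to 7.82) and under type 2B (9.31 to 11.13). Gm5532 had 8.56 against 7.86 to 8.94 in type 1, while no fiber of type 2B was well above background (S6.4 at least 20.6-fold higher), and of its 2 further probes 1 lay in the same place and 1 in both ranges. H19, an imprinted RNA, had 15.35 and was just above type 1 (13.80 to 15.298) and above type 2B (10.20 to 12.89), with 3 of 6 further probes in the same place, but it was inside the type 1 range with 75th percentile scaling. At the probes used, 2310065F04Rik, Gm5532 and H19 did not have type 2B values in S6.4. The 3 in the type 2B range only were Meg3, Mir22hg and Dnm3os, of which Dnm3os lay in both with normexp. Further probes of Meg3 and Dnm3os lay in both ranges. Pvt1 had 6.94, inside both groups (6.44 to 7.71 and 6.61 to 8.72).

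**Figure D5:**
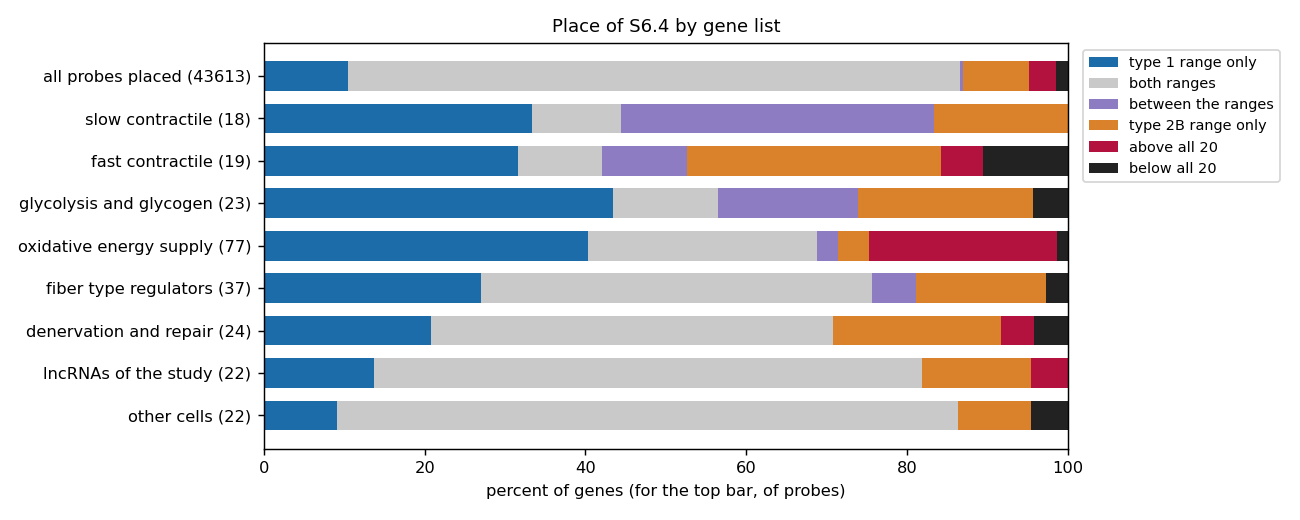
Share of genes of each list (bars; the top bar is of all 43613 probes placed) at which S6.4 lay in the type 1 range only, in both ranges, between them, in the type 2B range only, above all 20 or below all 20 other fibers. Of the lists drawn, the slow contractile one has 7 of 18 genes between the ranges, the fast contractile one 6 of 19 in the type 2B range only (3 with 75th percentile scaling) and the oxidative one 18 of 77 above all fibers (4 with 75th percentile scaling).

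Of the 7 receptor and junction genes of the denervation and repair list, 3 lay in both ranges, 3 were under the other type 1 fibers and 1 was above all fibers. The shares of all probes placed were 76.2%, 5.1% and 3.43%, in the same order. Chrne, the adult epsilon subunit of the acetylcholine receptor, had 3.44, under type 1 (6.63 to 11.31) and type 2B (4.16 to 11.78). Ache, which breaks down acetylcholine at the junction, is not on that list and was picked as 1 of the 10 genes farthest below. It had 5.47, under type 1 (7.303 to 9.85) and type 2B (7.28 to 10.94), at both of its probes. Chrna1 and Chrnd, the alpha and delta subunits, had 6.87 and 4.51 and lay under type 1 (8.23 to 10.31 and 6.43 to 8.40) and inside type 2B. The kinase Musk went the other way, with 10.85 above type 1 (8.23 to 10.75) and type 2B (7.25 to 9.80), but a second probe lay in both ranges. Chrng, the embryonic subunit, lay in both ranges at 6.80.

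Over the whole denervation and repair list, which also holds genes that respond to atrophy and stress, 12 of 24 genes lay in both ranges (76.2% of all probes placed did) and 5 lay under all other type 1 fibers (5.1% of all probes). The median of S6.4 minus the type 1 median was -0.51 over the 24 genes and 0.06 over all probes placed. Mstn, the growth inhibitor myostatin, was not well above background in S6.4 or in any other type 1 fiber, and the type 2B fibers were at least 16.1-fold higher than S6.4. Trim63, a ubiquitin ligase of atrophy, had 11.47, above type 1 (6.29 to 11.20) and inside type 2B (8.27 to 11.85), with a second probe in both ranges. Hspa1a, an inducible heat shock protein, had 7.64, under type 1 (9.52 to 12.98) and inside type 2B (1.72 to 12.26).

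Markers of other cells were placed too. Of 28 marker genes with a probe 22 were placed, and of these 17 lay in both ranges (76.2% of all probes did), 2 in the type 1 range only, 2 in the type 2B range only and 1 below all. Of the 22, 3 were under all other type 1 fibers (5.1% of all probes were) and none was above them. The summed linear signal of the 6 satellite cell markers was 1263 in S6.4, 1222 to 6668 in the other type 1 fibers and 647 to 3832 in type 2B. That of the endothelial markers was 1498, within 1220 to 2894 and 1186 to 3301, and that of the connective tissue markers was 315, within 220 to 3755 and 166 to 546. Each sum of S6.4 was thus inside the range of both groups, and those for satellite cells and connective tissue were near the lower end of type 1. In S6.4, 4 of the 6 satellite cell markers, 3 of the 5 endothelial and 3 of the 5 connective tissue markers were well above background, and Myf5, Calcr, Cdh5, Flt1, Dcn and Pdgfra were not. The part of these cells in the results was not tested. Fewer attached cells and less RNA per cell cannot be told apart.

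The genes farthest outside the other 20 fibers were mostly not muscle genes. Serp2, of the endoplasmic reticulum, had 10.09 in S6.4 against highs of 2.61 in type 1 and 1.82 in type 2B, and was not well above background in any of these. Adamts12, a secreted metalloprotease, had 8.95 against highs of 3.55 and 3.27, and a second probe was elsewhere. At the probe named, Adamts12 too was not well above background in any other fiber. Ptk2, focal adhesion kinase, had 11.06 against highs of 4.62 and 5.88, with its 2 further probes in other places. Madcam1, an adhesion molecule of vessels, had 12.28 against highs of 7.36 and 7.77, and its second probe was elsewhere too. The other 6 of the 10 were Septin4, Rab31, Tmbim7, Polm, Pdk3 and Poc1a, with 6.80 to 9.96 in S6.4 and no more than 5.88 in any other fiber. Of these, Tmbim7 was well above background in none of the other 20 fibers, Pdk3 in 2, Septin4 in 6, Poc1a in 8, Rab31 in 9 and Polm in 10. Septin4 and Poc1a, with 2 probes each, lay above all fibers at both.

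On the low side Ube2d1, a ubiquitin-conjugating enzyme, had 5.63 in S6.4 against 8.67 to 11.56 in type 1 and 11.65 to 13.26 in type 2B, 8.23-fold below the lowest. Actc1, cardiac actin, had 4.36 against 6.52 to 12.00 and 6.64 to 12.80. Zfp703, a zinc finger repressor, had 4.94 against 9.14 to 11.56 and 7.23 to 9.404. Ndufa9, Slc38a4, Itm2a, Cd24a, Ache and Dupd1 were 2.81 to 6.10-fold below the lowest other fiber. Nedd4l, a ubiquitin ligase, was not well above background in S6.4. At all 10 genes the other 20 fibers were well above background.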

How the data were processed

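For each of the 21 arrays (single-color Agilent, 62976 features, 3671 of them controls) the authors deposited the scanner output of Agilent Feature Extraction 10.7.3.1 (version per the submitters' processing notes), with the processed intensity of each spot, the mean intensity of the spot and of its background, and other values, namely flags per spot. The processed intensity is background-subtracted within the array and not normalized between arrays. The authors also deposited an intensity table of their own normalized values, used here only to check columns: its column for S6.4 ranked probes as the S6.4 scanner output does (Spearman's rho 1.00), and the next closest column gave 0.945. The coordinates in the scanner output are those of mm9.

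Log2 of the processed intensity of 59305 non-control spots was quantile normalized over the 21 arrays (limma 3.58.1, R 4.3.3). Spots with an outlier flag were left out, which touched 21 of the 272 list genes, mostly through S15.2, and spots of 1 probe were averaged. Of 55681 probes, 26425 were named through a RefSeq accession, 3988 through a symbol that RefSeq holds, and 25268 were not named. The types were compared without S6.4 in limma, where fibers of 1 mouse shared a random block (duplicateCorrelation, which estimated a correlation of -0.0185), with Bonferroni adjustment at 0.05 over 36461 probes well above background in at least 50% of a group. The fit was tested on simulated data. Placing used Python 3.11.15, pandas 2.3.3, numpy 2.4.6 and scipy 1.17.1. The number of arrays, not counting error, limits precision.

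S6.4 and the gene lists were chosen with earlier results of these data known. Named are genes of these lists, each read at its probe with the highest mean signal, the 10 genes farthest above all other fibers (well above background in S6.4) and the 10 farthest below (well above background in at least 15 of the 20). Named too are, for each direction of the type difference, the 10 genes with the widest difference at which S6.4 lay in the range of either type only. Bounds written "at least" set the mean of the brighter side against the higher of the dim probe's own signal and the lowest signal well above background on each array. Alternatives were 75th percentile scaling, normexp with an offset of 50, other filters on dim probes, other blocks and thresholds, the methods' t-test (Welch, with Bonferroni), other ranges, other probes and fibers left out. Quantile normalization on the linear scale was added after the data were seen.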

Additional observations from a re-analysis of the deposited data

Results flagged for a closer look

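In 12 of 134 groups of up to 10 fibers (67 genes, 2 groups each), 1 fiber stood apart from the rest of its group by Dixon's criterion. Chance alone meets it in about 1 in 20 groups of 10. All values are log2 normalized signals, and each such fiber sets an end of the range that S6.4 was read against. Groups with an outlier spot left out held fewer than 10 values, and none of the 12 was such a group.

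Among the other type 1 fibers, Myh4 was 8.27 in S7.3, with the next fiber at 4.21, so that without S7.3 the 5.63 of S6.4 would lie above type 1. Uqcrc1 was 12.38 in S16.3, the lowest of its group, with the next at 13.39. Ndufa9 was 8.97 in S5.9, the lowest of its group, with the next at 11.22, and S6.4 at 6.36 was under both.

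Among the type 2B fibers, Myh7b was 8.34 in E8.3, with the next at 7.44, so that without E8.3 the 8.22 of S6.4 would lie between the groups. Prox1 was 10.05 in E11.9, with the next at 5.76, and without it the 8.00 of S6.4 would likewise lie between. H19 was 10.20 in E12.5, with the next at 11.82 (names as in the scanner output, while the deposited value table has the columns of E12.5 and E13.3, both type 2B, the other way round). Pvalb was 16.95 in E9.6, and the other type 2B fibers were tied at 17.32. Both leave the place of S6.4 as it was.

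The remaining ones were not well above background, so that they are bounds. They were Myh3 at 3.94 in E7.7, Sln at 2.15 and Gm5532 at 2.43 in E10.4, Myl3 at 1.73 in E9.6 and Csrp3 at 1.61 in E15.3.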

How the results depend on the processing

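Without S6.4, 698 probes differed between the types, 393 higher in type 1 and 305 in type 2B. With the replicate block (the replicate number of the labels) 323 differed, 198 and 125, and S6.4 was in the type 2B range only at 12.6% of those higher in type 1 (17.3% without the block). The numbers do not pair the fibers: over 9 pairs the deviations correlated at -0.16 to 0.21. With only probes well above background on all arrays 404 differed, 164 of them higher in type 1, S6.4 was in the type 1 range at 59.6% and in the type 2B range only at 20.8% of those higher in type 2B (66.2% and 14.4% as reported), and it was below both groups at 2.23% of probes. With Benjamini-Hochberg adjustment 3630 differed, 1973 and 1657, with S6.4 in the type 1 range at 72.0% and 75.7% (59.3% and 66.2% as reported). With S6.4 kept in type 1 these shares were 65.3% and 72.3%, and those in the type 2B range only 11.33% and 9.12%. Ranges from the second lowest to the second highest fiber gave 45.3% and 45.2% in type 1 and 10.2% and 10.2% in the type 2B range only, and put S6.4 outside both groups at 14.1% of probes, above at 8.92% and below at 5.14% (4.89%, 3.43% and 1.47% as reported). With no filter on dim probes it was outside at 7.43% and below at 4.63%. With 75th percentile scaling it was in the type 2B range only at 9.68% of probes higher in type 2B. Where filters, adjustment or ranges changed, so did the probes counted. The cause of the other shifts was not tested.

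Without the other fibers of mouse 4, 576 probes differed, 334 and 242. S6.4 was then in the type 1 range at 55.1% and 62.0% of them, in the type 2B range only at 15.27% and 14.05%, and outside both groups at 5.42% of probes, above at 3.77% and below at 1.65%. Of the 37 contractile genes 21 lay outside the other type 1 fibers, and 20 to 28 did in the alternatives.

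Of the values of single genes under the alternatives, 325 moved by less than the spread between the other type 1 fibers, 39 moved by more and 2 turned. The 2 were second probes: Actn2, S6.4 minus the type 1 median, was -0.44 and Hdac9 0.56. Of 66 list genes with further probes placed, 30 had all of them in 1 place. Signal near background sets the limit for dim genes, whose order there carries no meaning.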

Other observations

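Hox and Tbx genes, which keep a record of the position of a muscle along the body and limb, were placed for S6.4 too. Of 11 such genes, 5 lay in both ranges (76.2% of all probes placed did), 4 in the type 1 range only (10.45%), 1 in the type 2B range only (8.19%) and 1 above both (3.43%). Hoxc10, of the hindlimb, had 10.51 in S6.4 against 10.13 to 11.74 in the other type 1 fibers and 10.96 to 13.70 in type 2B. Hoxa11, a distal limb gene, had 3.85 against 2.39 to 6.04 and 5.72 to 8.26. Hoxd11 alone lay in the type 2B range only, with 4.58 (type 1 2.66 to 4.40, type 2B 3.09 to 5.13). It lay in both ranges with 75th percentile scaling or normexp. Of the genes in the type 1 range only, Hoxd10 lay in both with 75th percentile scaling or normexp, and Hoxc10 was below both with normexp. Fiber type and muscle cannot be told apart at these genes. Tbx4, the hindlimb T-box factor, had 5.65 and was just above type 1 (2.96 to 5.47) and above type 2B (1.76 to 4.53).

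Of the genes of muscle identity, Eya1, a transcriptional cofactor, had 16.18 and lay in the type 1 range (15.99 to 16.29), barely above the highest type 2B fiber at 16.16. Myod1 and Myf6, myogenic factors, had 9.34 and 8.79, each just under type 1 (9.43 to 12.57 and 9.19 to 11.48) and inside type 2B. Mir22hg, a microRNA host RNA, had 11.65, above type 1 (8.14 to 10.73) and inside type 2B (6.24 to 11.97). The 3 genes used as references for PCR lay in both ranges in S6.4.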
